A study of Homo sapiens with 4 samples.

Results

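Translation initiation factors are the proteins that bring the ribosome, the initiator tRNA and the mRNA together before a polypeptide is started. The genes described here are the rows whose symbol begins with EIF and a digit from 1 to 6. The 5 rows whose symbol begins with EIF2AK, as in the eIF2 kinase genes, 2 divergent transcripts and 15 pseudogenes were set aside. A level of at least 1 TPM in 2 samples was required. Of 72 rows with such a symbol 50 genes remained, of 16817 genes tested and 18567 rows in all, and none was lost to the TPM minimum. TPM is a transcript level divided by transcript length and scaled to the total of its sample, so that levels can be set side by side between genes.

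RNA was sequenced from 4 samples labelled Kasumi-1, a cell line from an acute myeloid leukemia, of which 2 were controls (NC) and 2 carried a short hairpin RNA against ANP32B (sh-ANP32B), and the comparison asks how the transcriptome differs when this nuclear phosphoprotein is depleted. GEO's labels give the NC samples as untreated and free of a hairpin, while the methods describe a lentiviral control hairpin and puromycin selection. If the labels hold, knockdown and infection cannot be told apart. Neither source tells which of 3 ANP32B hairpins a sample received, nor whether the replicates came from separate infections. The p-values then measure the spread between these samples, which may be technical. ANP32B was lower in the sh-ANP32B samples, at 51.8 and 41.2 TPM against 384 and 392 TPM in NC (limma adjusted p 0.00516).

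The cell line label was checked on markers. Kasumi-1 is known for the RUNX1-RUNX1T1 fusion and for abundant KIT. RUNX1T1 was present at 17.6 and 15.6 TPM in NC and at 31.2 and 26.8 TPM in sh-ANP32B. Its log2 fold change was 0.77 (limma adjusted p 0.0632). KIT, however, lay between 1.55 and 3.41 TPM, which goes against the label. Of 7 listed markers of myeloid blasts, 5 were among the genes tested, and CD34 and MPO were not. HOXA9 and MEIS1, homeobox genes known for high levels in leukemias with KMT2A rearrangement and looked up after their values had been seen, lay between 150.2 and 194 TPM and between 49.9 and 64.3 TPM. The samples are therefore referred to as the libraries labelled Kasumi-1, and every result below is a difference between such libraries. The 5 myeloid markers summed to 462 and 438 TPM in NC and to 534 and 606 TPM in sh-ANP32B. All 5 were higher in both sh-ANP32B samples than in both NC samples, as 33.2% of all genes were. The part of these markers in the results below was not tested.

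As background, initiation begins with eIF2, a GTPase that carries the initiator tRNA and is recharged by its exchange factor eIF2B. The large eIF3 complex joins them on the small ribosomal subunit, together with eIF1, eIF1A and eIF5, which control start codon choice. The mRNA is recruited by eIF4F, made of the cap-binding protein eIF4E, the RNA helicase eIF4A and the scaffold eIF4G, and eIF4E is held back by the 4E-BP proteins, which mTORC1 inactivates. Several of these genes are known targets of MYC, which was itself lower here, at 56.7 and 63.2 TPM against 131 and 144 TPM in NC (limma adjusted p 0.0261).

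The differences of the initiation factor genes were mostly small and mostly downward. EIF4A1, the main eIF4A helicase gene, was the only member with an adjusted p under 0.05. That is 1 lower gene of 50, or 2% of the members, where 1.18% of all genes tested were called lower. With 2.14% of all genes called higher, 0 members were, although 2 members, EIF2B4 and EIF4E2, were higher at an unadjusted p under 0.05 (15% of all genes were). By the criterion of the study, an unadjusted p under 0.05 and a change beyond 0.5 in size on the log2 scale, 4 members were lower against 6.55% of all genes, and 0 were higher against 12.1%. These 4 were EIF5AL1, EIF2B3, EIF4A1 and EIF5A. At an unadjusted p under 0.05 alone, 8 members (16%) were lower, against 8.72% of all genes, the other 4 being EIF3C, EIF4G1, EIF3K and EIF3CL. These 8 hold EIF5A with EIF5AL1 and EIF3C with EIF3CL, pairs that may share reads and so be counted double. With rows that can share reads summed, chosen after seeing the data, 3 of 48 members were lower by the criterion of the study. The share of all genes past it was not computed in that setting. The adjusted count depended on the libraries. Without either NC replicate 0 members were called lower, without sh-ANP32B replicate 1 there were 13 (9.68% of all genes) and without replicate 2 there were 8 (8.47%).

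The 50 fold changes lay in a narrow band, between -0.85 for EIF5AL1 and 0.46 for EIF4E3 on the log2(TPM + 1) scale. Adding 1 TPM makes the change of a low gene look smaller than it is. Their median was -0.13, beside 0.08 over all genes tested. A negative fold change was found for 34 members (68%), against 42.1% of all genes. Both sh-ANP32B samples lay below both NC samples in 21 members (42%, against 21.4% of all genes), and above them in 6 (12%, against 33.2%). These shares are descriptions of the members as a list and carry no test. The members were also more abundant, with a median NC level of 98.7 TPM against 14.3 TPM over all genes tested. Their replicates differed by a median of 0.070 in NC and 0.21 in sh-ANP32B on the log2 scale, against 0.15 and 0.30 over all genes. The part of level and replicate spread in these shares was not tested. Under median-of-ratios scaling, which moved the median of all genes to 0.01, the members' median was -0.22 and 42 were negative. In all, the 50 genes took 0.803% and 0.790% of the TPM sum in the NC samples, and 0.764% and 0.715% in the sh-ANP32B samples.

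**Figure D1:**
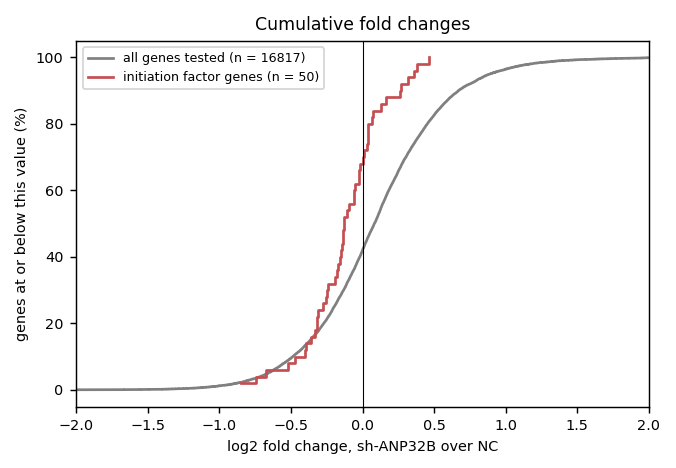
The x axis gives the log2 fold change of sh-ANP32B over NC and the y axis the percentage of genes at or below it, for all 16817 genes tested (grey) and the 50 initiation factor genes (red). The red curve crosses 0 at 68% and the grey one at 42.1%, and the red curve ends at 0.46.

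**Figure D2:**
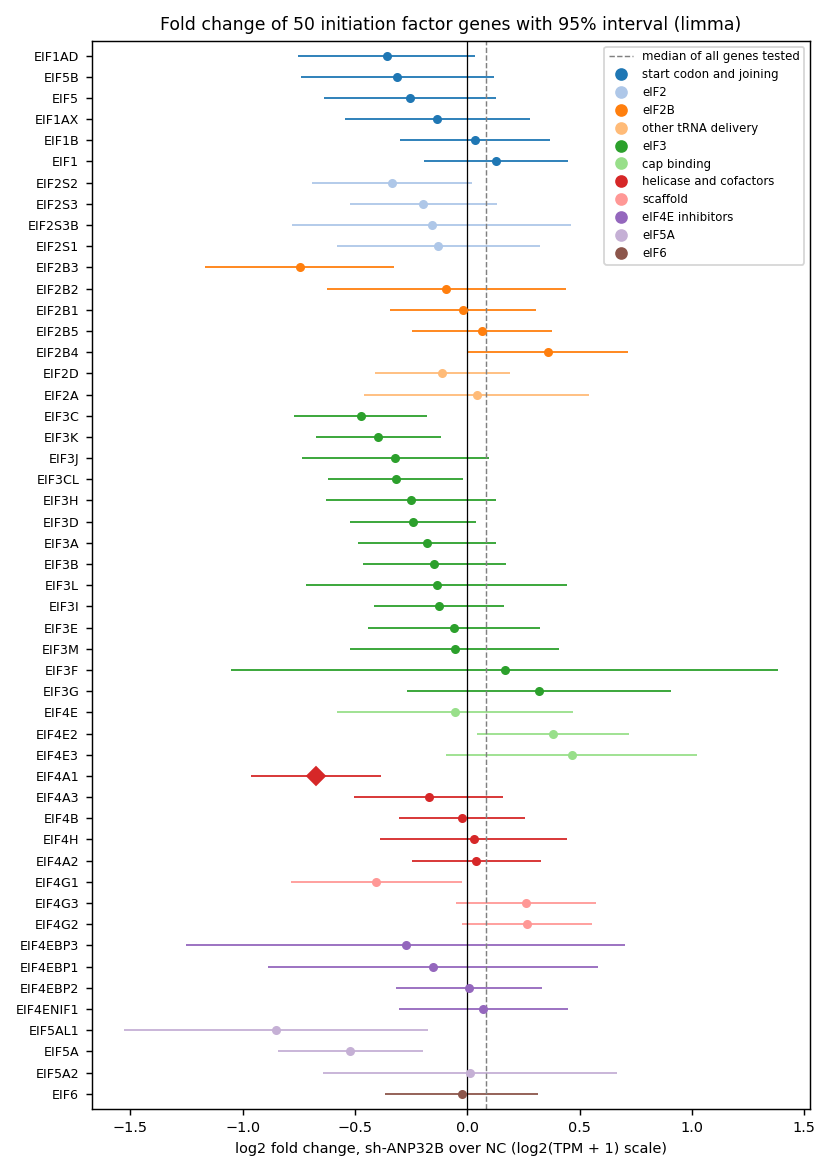
Each point is the log2 fold change of 1 gene on the x axis with its 95% limma interval, with the genes on the y axis ordered by role and coloured by it, and the dashed line marks the median of all genes tested, 0.08. EIF4A1 (diamond) was the only gene with an adjusted p under 0.05.

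The promoter sequences of members that were lower at an unadjusted p under 0.05 were searched for the E-box CACGTG, the letters that MYC is known to bind. That letter string reads the same on both strands. RefSeq promoter windows (GRCh38.p14), reaching from 250 bases before to 50 bases after each gene's start, were held for 42 of the 50 members. The E-box occurred in 11 of 58 member windows (19.0%), against 9.80% of 14247 windows of genes tested and 7.26% of all 35116 windows. The ETS core CCGGAAG, searched on both strands, occurred in 24.1% of member windows and 17.7% of those of genes tested. In 14 windows of the 7 lower members that had one, the ETS core was found in 1 and the E-box in 3, those of EIF2B3, EIF3K and 1 of 3 EIF4G1 windows. The 250 upstream bases of these are printed 5′ to 3′ with the E-box in capitals, next to EIF4A1, which had no E-box in its window, and EIF4E, which had 2 and whose level did not pass the test.
EIF4A1, chr17:7572575-7572824, plus strand: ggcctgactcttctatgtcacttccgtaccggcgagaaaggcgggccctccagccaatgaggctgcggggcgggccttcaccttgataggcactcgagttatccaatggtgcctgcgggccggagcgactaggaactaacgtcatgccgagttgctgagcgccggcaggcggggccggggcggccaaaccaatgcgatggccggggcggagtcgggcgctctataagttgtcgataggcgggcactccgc
EIF2B3, chr1:44986596-44986845, minus strand: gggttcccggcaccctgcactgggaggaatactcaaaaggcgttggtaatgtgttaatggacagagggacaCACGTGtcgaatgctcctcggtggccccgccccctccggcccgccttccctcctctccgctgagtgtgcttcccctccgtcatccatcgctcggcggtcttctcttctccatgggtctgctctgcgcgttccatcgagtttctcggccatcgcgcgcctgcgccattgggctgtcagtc
EIF4G1, chr3:184314356-184314605, plus strand: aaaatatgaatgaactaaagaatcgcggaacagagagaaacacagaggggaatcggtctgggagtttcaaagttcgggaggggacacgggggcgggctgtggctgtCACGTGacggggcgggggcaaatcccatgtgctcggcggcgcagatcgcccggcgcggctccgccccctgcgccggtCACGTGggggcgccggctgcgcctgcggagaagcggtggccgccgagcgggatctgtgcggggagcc
EIF3K, chr19:38618938-38619187, plus strand: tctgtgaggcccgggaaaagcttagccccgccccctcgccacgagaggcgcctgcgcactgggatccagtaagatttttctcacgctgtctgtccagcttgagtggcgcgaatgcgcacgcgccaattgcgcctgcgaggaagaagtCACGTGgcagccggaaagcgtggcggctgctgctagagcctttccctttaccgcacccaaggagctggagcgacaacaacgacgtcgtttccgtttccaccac
EIF4E, chr4:98929134-98929383, minus strand: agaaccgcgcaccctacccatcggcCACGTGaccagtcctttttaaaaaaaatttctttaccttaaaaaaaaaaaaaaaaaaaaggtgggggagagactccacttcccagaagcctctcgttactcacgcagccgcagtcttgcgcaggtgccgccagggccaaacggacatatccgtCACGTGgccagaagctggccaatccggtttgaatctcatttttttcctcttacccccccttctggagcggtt
Counted by gene, the E-box was in a window of 11 of 42 members (26.2%) and of 13.0% of 9959 tested genes. The members with an E-box that are not printed were EIF1B, EIF3F, EIF4A3, EIF4B, EIF4EBP3, EIF4H and EIF5A2. EIF4E had a log2 fold change of -0.05. The part of MYC in these differences was not tested. A match of letters is a description of the window and not a measured binding site.

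Among the eIF4F helicases, EIF4A1 fell and its close paralog EIF4A2 did not pass the test. EIF4A1 (ENSG00000161960), which spans positions 7572824 to 7579006 of chromosome 17 (hg38, plus strand), was at 457 and 493 TPM in the NC pair and at 289 and 307 TPM in the knockdown pair. The sh-ANP32B samples were both well below the NC samples, at a mean of 298 ± 12.5 against 475 ± 25.4 TPM (SD, n = 2 each), or 62.7% of NC. The change on the log2 scale was -0.67 (SE 0.121, adjusted p 0.0441 by limma), a value that 4.78% of all genes tested matched or went below. The call was lost without NC replicate 1 or NC replicate 2 (limma adjusted p 0.281 and 0.444), and without the abundance trend (0.138), while the fold change lay between -0.76 and -0.62 over all alternatives. EIF4A1 shares its exons with the readthrough gene SENP3-EIF4A1, listed at 0.262 and 4.16 TPM in the NC pair and 1.63 and 26.3 TPM in the knockdown pair. With both rows summed the log2 fold change was -0.62 and the limma adjusted p 0.0580, an alternative chosen after seeing the data.

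EIF4A2, which encodes a closely related helicase, was at 428 and 436 TPM in the NC pair and at 464 and 424 TPM in the knockdown pair. The groups overlapped, with a log2 fold change of 0.04 (95% interval -0.25 to 0.33) that turned to -0.05 under median-of-ratios scaling. The ratio of EIF4A1 to EIF4A2 within a sample was 1.07 and 1.13 in NC and 0.623 and 0.722 in sh-ANP32B. EIF4A1 was thus the more abundant of the pair in both NC samples and the less abundant in both sh-ANP32B samples. EIF4A3, the helicase of the exon junction complex, and the helicase cofactors EIF4B and EIF4H had log2 fold changes of -0.17, -0.02 and 0.03, with limma adjusted p of 0.502, 0.928 and 0.945.

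The scaffold genes pointed in different directions, and none of the 3 passed the test. EIF4G1, the principal scaffold that bridges the cap complex and eIF3, was at 146 and 140.2 TPM in the NC pair and at 94.9 and 123 TPM in the knockdown pair. Both sh-ANP32B samples were below NC, but they differed from each other by 0.37 on the log2 scale, and the log2 fold change of -0.40 (SE 0.159) had a limma adjusted p of 0.190. Without sh-ANP32B replicate 2 it was -0.59 (limma adjusted p 0.00393) and without replicate 1 it was -0.22 (0.120), and over all alternatives the adjusted p ran from 0.00393 to 0.754. EIF4G2, a scaffold that lacks the eIF4E-binding region, was at 292 and 280.3 TPM in the NC pair and at 358 and 330.3 TPM in the knockdown pair, and EIF4G3 had 61.1 and 61.9 TPM against 74.8 and 73.2 TPM. Their log2 fold changes were 0.27 and 0.26 (limma adjusted p 0.244 and 0.278). Both lay higher in sh-ANP32B without overlap between the groups, as 33.2% of all genes did. The ratio of EIF4G1 to EIF4G2 was 0.502 and 0.50 in NC and 0.265 and 0.372 in sh-ANP32B.

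The cap-binding genes were low compared with the rest of eIF4F. EIF4E, the major cap-binding protein, was at 15.1 and 22.2 TPM in the NC pair and at 18.3 and 16.9 TPM in the knockdown pair. The NC samples lay on either side of both sh-ANP32B samples, and the log2 fold change of -0.05 (95% interval -0.58 to 0.47, limma adjusted p 0.916) changed sign without NC replicate 2, where it was 0.21. EIF4E2, a homologue known as a repressor of translation, was at 38.0 and 40.0 TPM in the NC pair and at 53.0 and 49.5 TPM in the knockdown pair, with a log2 fold change of 0.38 (adjusted p 0.170 by limma). EIF4E3, another atypical cap binder, had 3.52 and 3.74 TPM against 5.63 and 5.15 TPM (log2 fold change 0.46, limma adjusted p 0.284). Both EIF4E2 and EIF4E3 were higher in each sh-ANP32B sample than in either NC sample, as 33.2% of all genes were. Neither passed the test.

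**Figure D3:**
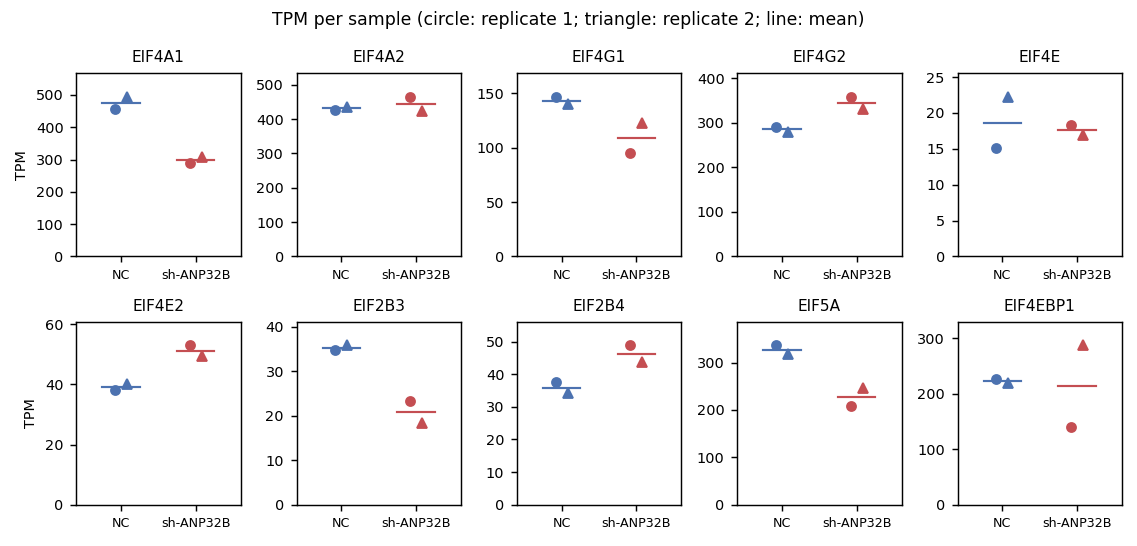
The y axis of each panel is TPM from 0, with NC on the left and sh-ANP32B on the right, circles for replicate 1, triangles for replicate 2 and lines for means. EIF4A1, EIF4G1, EIF2B3 and EIF5A lay lower in both sh-ANP32B samples, EIF4G2, EIF4E2 and EIF2B4 higher in both, and the EIF4EBP1 samples of sh-ANP32B fell on opposite sides of NC.

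The genes of the eIF4E inhibitors gave no call, and EIF4EBP1 took opposite sides of NC in the knockdown libraries. EIF4EBP1 was at 226 and 219 TPM in the NC pair, at 139 TPM in sh-ANP32B replicate 1 and 287 TPM in replicate 2. The first lay below and the second above both NC samples, giving a log2 fold change of -0.15 (SE 0.307, adjusted p 0.813 by limma). Without sh-ANP32B replicate 2 the fold change was -0.67 (limma adjusted p 0.00182), and without replicate 1 it was 0.36 (0.0134), so that the call took either direction. EIF4EBP2 had 58.3 and 61.8 TPM against 62.3 and 58.3 TPM, with a log2 fold change of 0.01 (95% interval -0.32 to 0.33) that was slightly negative under each of the other scalings. EIF4EBP3 was low, at 1.21 to 3.62 TPM over the 4 samples. The readthrough gene ANKHD1-EIF4EBP3, which overlaps it, was at 26.4 and 24.2 TPM in the NC pair and 25.3 and 34.2 TPM in the knockdown pair. With both rows summed, its log2 fold change of -0.28 became 0.16, an alternative chosen after seeing the data. EIF4ENIF1, which carries eIF4E to the nucleus and to P-bodies, had a log2 fold change of 0.07 (adjusted p 0.833 by limma).

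In the eIF2 and eIF2B group, EIF2B3, the gamma subunit of the exchange factor, had the fold change of largest size. EIF2B3 (ENSG00000070785), which spans positions 44850522 to 44986722 of chromosome 1 (hg38, minus strand), was at 34.8 and 35.8 TPM in the NC pair and at 23.3 and 18.3 TPM in the knockdown pair. The groups were separated by a gap wider than the spread within either, and the sh-ANP32B mean was 58.8% of NC. The log2 fold change of -0.75 (SE 0.176) met the criterion of the study but not the adjusted threshold (limma adjusted p 0.0703), which it passed after GC correction (0.0142). Over all alternatives the adjusted p ran from 0.00191 to 0.399. EIF2B4, the delta subunit, went the other way, with 37.5 and 34.3 TPM in the NC pair and 48.8 and 43.8 TPM in the knockdown pair (log2 fold change 0.36, limma adjusted p 0.209). The ratio of EIF2B4 to EIF2B3 was 1.08 and 0.958 in NC and 2.1 and 2.40 in sh-ANP32B. EIF2B5, the catalytic subunit, had 73.9 and 77.1 TPM against 81.0 and 77.0 TPM, with overlap (log2 fold change 0.06, 95% interval -0.25 to 0.37). EIF2B1 and EIF2B2 had log2 fold changes of -0.02 and -0.09.

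All 4 genes of eIF2 had negative fold changes, from -0.33 to -0.13, and 0 passed the test by limma (0 also at an unadjusted p under 0.05). EIF2S3B, at 6.32 to 10.3 TPM, is a copy of EIF2S3, at 198 to 255 TPM. Reads of the pair may be divided between them, and the pair was not summed. EIF2S1, whose protein is phosphorylated when cells are stressed, was at 58.9 and 53.6 TPM in the NC pair and at 60.5 and 43.4 TPM in the knockdown pair. The sh-ANP32B samples again enclosed the NC pair (log2 fold change -0.13, limma adjusted p 0.731), and without sh-ANP32B replicate 2 the fold change was 0.10. EIF2A and EIF2D, which deliver tRNA outside the eIF2 route, had log2 fold changes of 0.04 and -0.11.

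The eIF3 complex supplied the largest number of members, 14 genes that encode its subunits, with 12 negative fold changes and 0 calls. In 9 of them both sh-ANP32B samples lay below both NC samples, and in 0 above, where 21.4% and 33.2% of all genes did so. Their median log2 fold change was -0.16. At an unadjusted p under 0.05 EIF3C, EIF3CL and EIF3K were lower. EIF3C, a core subunit, was at 154 and 145 TPM in the NC pair and at 108 and 106 TPM in the knockdown pair (log2 fold change -0.48, SE 0.124, limma adjusted p 0.0845). EIF3CL is a near-identical copy on the same chromosome, so reads of the pair may be divided between them, and its own values of 142 and 135 TPM against 107 and 115 TPM are uncertain. Summed, they gave 296 and 280.3 TPM in the NC pair and 216 and 221 TPM in the knockdown pair, a log2 fold change of -0.40 (adjusted p 0.112 by limma).

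EIF3K, a peripheral subunit, was at 332 and 325 TPM in the NC pair and at 251 and 248 TPM in the knockdown pair, where the replicates of each group almost coincided (log2 fold change -0.40, limma adjusted p 0.108). After GC correction EIF3C, EIF3CL and EIF3K had limma adjusted p of 0.0127, 0.0154 and 0.0128, but without NC replicate 1 these were 0.683, 0.842 and 0.735. EIF3A, the largest subunit, had 133 and 132 TPM against 122 and 111 TPM, and EIF3B, which holds the scaffold with it, had 226 and 219 TPM against 186 and 217 TPM. Both were lower in sh-ANP32B without overlap, as 21.4% of all genes were, by 0.18 and 0.15 on the log2 scale. Neither passed the test (limma adjusted p 0.443 and 0.557). EIF3B was at -0.035 without sh-ANP32B replicate 1 and -0.26 without replicate 2, and EIF3A at -0.25 and -0.11.

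Levels within eIF3 were far from even, although the subunits belong to one complex. EIF3E was the most abundant of all 50 members, with 782 to 1029 TPM over the 4 samples, and EIF3J, a loosely bound subunit, the lowest of eIF3, with 39.4 to 57.6 TPM. EIF3F and EIF3G are given here because of their spread, after their values had been seen. EIF3F was at 233 and 81.2 TPM in the NC pair and at 219 and 109 TPM in the knockdown pair, so that the replicates of a group differed more than the groups did. EIF3G was at 192 and 196 TPM in the NC pair, at 184 TPM in sh-ANP32B replicate 1 and 319 TPM in replicate 2, and its log2 fold change of 0.32 was -0.08 without the latter and 0.71 without the former.

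**Figure D4:**
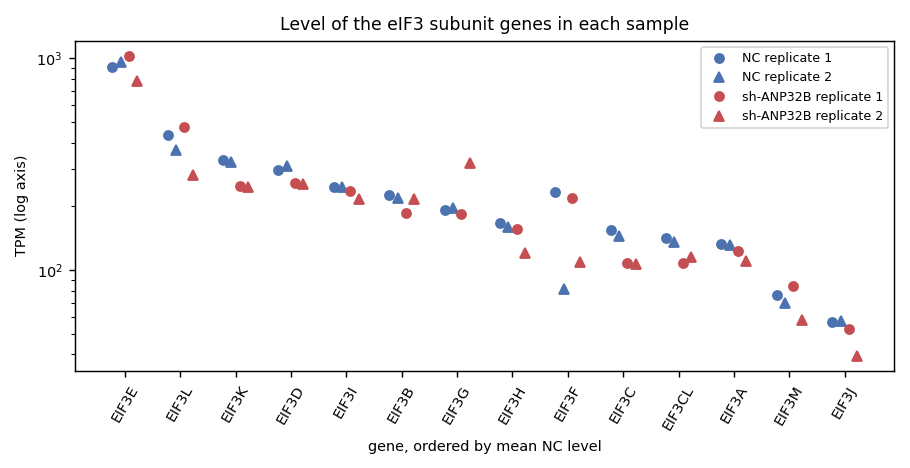
The y axis (log scale) is TPM and the x axis lists the 14 eIF3 subunit genes by falling mean NC level, with NC in blue, sh-ANP32B in red, circles for replicate 1 and triangles for replicate 2. The levels ran from 1029 TPM for EIF3E to 39.4 TPM for EIF3J, and the EIF3F points separated by replicate number, not by group.

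The remaining factors act at start codon selection, subunit joining and afterwards. EIF5A, which helps ribosomes past difficult peptide bonds and carries the unusual amino acid hypusine, spans positions 7306999 to 7312463 of chromosome 17 (hg38, plus strand). It was at 336 and 317 TPM in the NC pair and at 209 and 247 TPM in the knockdown pair, so that both knockdown samples were lower (log2 fold change -0.52, SE 0.136, limma adjusted p 0.0845). After GC correction it was -0.70 (limma adjusted p 0.00643, with 0.00191 to 0.609 over all alternatives). EIF5AL1, a copy of EIF5A derived from its mRNA, was listed at 3.75 and 3.46 TPM in the NC pair and at 1.84 and 1.29 TPM in the knockdown pair, with a limma adjusted p of 0.138. It may take reads from EIF5A, and its own value is uncertain. The paralog EIF5A2 was at 2.19 to 2.29 TPM in all 4 samples. The enzymes that make hypusine, DHPS and DOHH, had log2 fold changes of 0.26 and -0.60 (limma adjusted p 0.361 and 0.246).

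Of the 6 start codon and joining factors 0 passed the test by limma, and 0 had an unadjusted p under 0.05. EIF5B, the GTPase that joins the ribosomal subunits, was at 45.4 and 50.3 TPM in the NC pair and at 44.1 and 33.3 TPM in the knockdown pair (log2 fold change -0.31, limma adjusted p 0.346). Without sh-ANP32B replicate 1 the fold change was -0.51 (limma adjusted p 0.0192) and without replicate 2 it was -0.12 (0.543), within a range of 0.0192 to 0.886 for the adjusted p over all alternatives. EIF1AX, a scanning factor, had 38.7 and 41.9 TPM against 41.5 and 32.3 TPM, with overlap (log2 fold change -0.13, limma adjusted p 0.695). EIF6, which keeps free large subunits apart from small ones, had 98.7 and 90.5 TPM against 86.1 and 100.3 TPM (log2 fold change -0.02, 95% interval -0.37 to 0.32).

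The sh-ANP32B replicates of many members differed along GC content, the percentage of G and C in the longest transcript. Across the 50 members the difference of sh-ANP32B replicate 2 from replicate 1 had a Spearman rho of 0.67 with GC content, and that of the NC replicates -0.33. Over 15427 genes the same values were 0.58 and -0.21. The points share 4 libraries, and these values are descriptions. The 5 members in which sh-ANP32B replicate 1 lay below and replicate 2 above both NC samples were EIF3G, EIF4EBP1, EIF4EBP3, EIF4H and EIF6, with a median GC content of 60.3%. The 8 with the opposite order, EIF2A, EIF2B1, EIF2S1, EIF2S3B, EIF3E, EIF3L, EIF3M and EIF4A2, had a median of 38.7%. The members named in both sets were chosen after their values were seen. The fold change itself had a rho of -0.21 with GC content over the members and 0.16 over the 15427 genes. The members' median was -0.18 after GC correction. In that setting 11 members were called lower, where 8.90% of all genes were, and EIF4E2 was called higher. In either direction 16.4% of all genes were called.

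**Figure D5:**
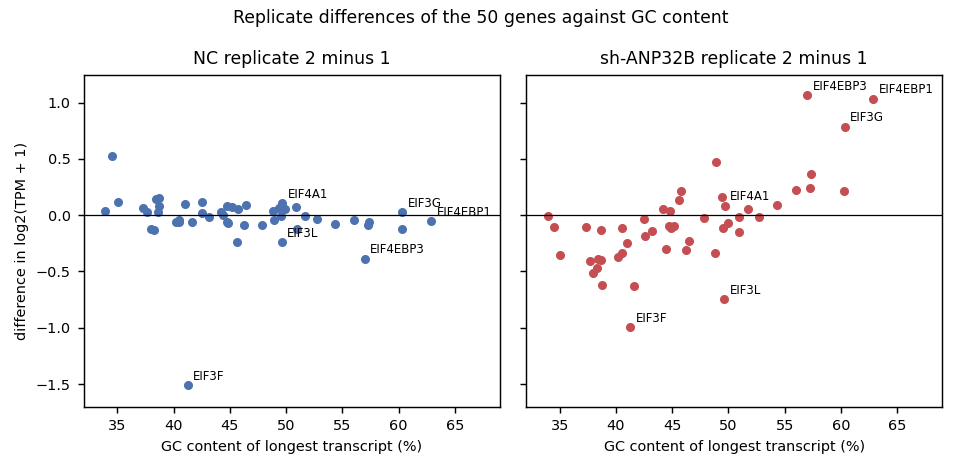
Each point is 1 of the 50 genes, with GC content of its longest transcript (%) on the x axis and the difference in log2(TPM + 1) between replicates 2 and 1 on the y axis, for NC (left) and sh-ANP32B (right). In sh-ANP32B the points run from lower left to upper right (rho 0.67), with EIF4EBP3 and EIF4EBP1 highest at 1.06 and 1.04, while EIF3F lay at -1.51 in NC and below all other points in sh-ANP32B as well.

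Genes that act around initiation were read from lists. Among the eIF2 kinases and the phosphatase subunits that reverse them, 0 of 6 passed the adjusted threshold by limma, and 3 had an unadjusted p under 0.05, 2 of them lower and 1 higher, where 8.72% of all genes were lower and 15% higher. The phosphatase subunits met the criterion of the study in opposite directions. PPP1R15A, which stress induces, was at 58.8 and 49.1 TPM in the NC pair and at 71.8 and 102 TPM in the knockdown pair (log2 fold change 0.66, limma adjusted p 0.116). It was 0.91 without sh-ANP32B replicate 1, 0.41 without replicate 2 and 0.48 after GC correction, and the last 2 of these fall short of the criterion. PPP1R15B, its constitutive counterpart, had 63.5 and 69.9 TPM against 47.0 and 44.9 TPM (log2 fold change -0.53, limma adjusted p 0.0882).

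The kinase complex mTORC1 and the MNK kinases signal to eIF4E and its inhibitors. Of 11 genes of these kinases, their partners and their regulators, 0 passed the adjusted threshold. An unadjusted p under 0.05 was found for 3, where 8.72% of all genes were lower and 15% higher. Of the 3, 1 was lower (MLST8) and 2 were higher (RPTOR and TSC2). Of the 11 fold changes 3 were negative, where 42.1% of all genes were. The list also holds TSC1, TSC2 and AKT1S1, which restrain mTORC1, at log2 fold changes of 0.25, 0.48 and 0.33. Its counts and median therefore give no direction for mTORC1. RPTOR and MLST8, partners of the MTOR kinase in mTORC1, met the criterion of the study in opposite directions, with log2 fold changes of 0.55 and -0.54 (limma adjusted p 0.139 and 0.167). RPTOR no longer met it under any other scaling (0.46 with median-of-ratios, 0.498 without mitochondrial genes, 0.48 after quantile normalization and 0.34 after GC correction), and was 0.34 without sh-ANP32B replicate 2. MLST8 was -0.27 without sh-ANP32B replicate 1 and -0.82 without replicate 2. Among 11 partners of initiation, such as the poly(A)-binding proteins, 9 were negative and 0 had an unadjusted p under 0.05. Of 8 elongation factors 7 were tested, with 0 calls, and EEF1E1, a scaffold of the tRNA synthetase complex, met the criterion of the study (log2 fold change -0.58, limma adjusted p 0.134). The 3 termination and recycling factors tested of 4 had fold changes from -0.25 to -0.12. The medians of these lists were -0.13 for the eIF2 kinases and phosphatase, 0.25 for mTORC1 and MNK, -0.14 for the partners, -0.02 for elongation and -0.25 for termination, beside 0.08 over all genes.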

How the data were processed

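The deposited table held TPM values for 4 samples, which the authors made from reads aligned to hg38 with HISAT2 v2.0.5. The program behind the TPM values, its annotation and its use of strand are not given in the sources used here. TPM was recognised from columns that sum to 997812 to 998314. It keeps no depth, so the depth of each sample is unknown and no counting interval was computed. Symbols, positions and GC content came from GENCODE v44 (hg38), which held 16986 of 18567 gene IDs. The 1581 other rows had no symbol.

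Genes with at least 1 TPM in 2 samples were kept, transformed to log2(TPM + 1) and compared by limma 3.58.1 with an abundance trend (R 4.3.3), with two-sided p-values adjusted by the Benjamini-Hochberg method over all 16817 genes. The study's own test needs counts and was not used. An exact permutation test of 2 against 2 samples cannot reach 0.05 and was not run. The members and gene lists were chosen with earlier results of these data known. Every member could be named, and values per sample are given for members past either threshold, for 13 members listed by name and, added after the values were seen, for EIF4A2, EIF4G2, EIF4G3, EIF4E2, EIF4E3, EIF2B4, EIF3C, EIF3CL, EIF3F, EIF3G, EIF3K and EIF3L. Ranges for EIF3E, EIF3J and EIF5A2 and fold changes of DHPS and DOHH were added in the same way. The test was also run on simulated data with independent noise and planted changes larger in size than that of any member. These data lacked the replicate differences along GC content seen here, so that run does not bear on them. Positions of 27 of the 50 genes overlap those of another row, in 22 cases on the opposite strand, so reads may be shared. Alternatives were another pseudocount, other filters, scalings, GC correction by loess (span 0.3), no trend, a replicate block, leaving out each replicate, and, chosen after seeing the data, summing rows that can share reads. Python 3.11.15 and matplotlib 3.10.9 were used. The list of markers of other cell types was read, but its result is not reported here.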

Additional observations from a re-analysis of the deposited data

How the results depend on the processing

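The count of 1 member called lower held with the smaller pseudocount, other filters and scalings between samples. It was 11 with GC correction (8.90% of all genes called lower) and 2 with the replicate block (2.92%). It was 0 without the abundance trend (0%) and 0 with the rows that can share reads summed (1.18%). The count of 0 called higher was 1 with GC correction. Leaving out 1 replicate gave 0 to 13 lower and 0 to 4 higher members, 2 to 6 lower and 0 to 1 higher by the criterion of the study, and 273 to 4079 called genes in all. In these fits the lone sample is assumed to vary like the intact group. The 4 members lower by the criterion of the study were 7 with GC correction, a setting in which the share of all genes past it was not computed. The 559 genes called in all were 2534 with GC correction, 0 without the trend and 1473 with the replicate block. ANP32B stayed at -3.04 without the trend, with a limma adjusted p of 0.0929. The cause of these shifts was not tested.

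The labels do not say whether same-numbered samples belong together. Same-numbered samples had deviations with a Pearson r of -0.0925 across genes. This cannot decide the pairing, since replicate differences followed GC content in opposite directions (rho -0.21 in NC and 0.58 in sh-ANP32B). The replicate block added EIF2B3 (limma adjusted p 0.0352) to EIF4A1 (0.0209). The members' median stayed negative in each alternative, from -0.22 to -0.07.

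EIF4A1, the only member past the threshold, kept its sign in every alternative. Among the other members, changes by setting were followed only for a chosen set, so the turned signs given here are not complete. Negative fold changes numbered 34 of 50 members in the main setting. They numbered 42 with median-of-ratios scaling and 40 once mitochondrial genes were removed. GC correction gave 39, and quantile normalization also gave 39. The log2 fold change under median-of-ratios scaling was -0.082 for EIF4EBP2, -0.024 for EIF2B5 and -0.049 for EIF4A2. The log2 fold change without mitochondrial genes was -0.043 for EIF4EBP2 and -0.0099 for EIF4A2. The log2 fold change after quantile normalization was -0.069 for EIF4EBP2, -0.0030 for EIF2B5 and -0.034 for EIF4A2. The log2 fold change after GC correction was -0.022 for EIF4EBP2 and -0.0036 for EIF2B5. With 1 replicate left out, the lowest and highest values ran from -0.32 to 0.21 for EIF4E, from -0.67 to 0.36 for EIF4EBP1, from -0.041 to 0.053 for EIF4EBP2, from -0.36 to 0.10 for EIF2S1, from -0.13 to 0.085 for EIF6, from -0.31 to 0.042 for EIF1AX, from -0.59 to 0.92 for EIF3F, from -0.076 to 0.71 for EIF3G and from -0.024 to 0.10 for EIF4A2. With unknown depth, low genes such as EIF4EBP3 cannot be given a counting error.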

Other observations

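EEF1A1, which encodes the tRNA-delivering elongation factor and is not an initiation factor, shared the order of EIF3F by replicate number, with 9716 and 7654 TPM in the NC pair and 9755 and 7846 TPM in the knockdown pair. EIF3L was at 435 and 369 TPM in the NC pair and 472 and 281 TPM in the knockdown pair. These genes were chosen after their values were seen.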
